A study of Mus musculus with 8 samples.

Results

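A set of 178 genes was defined by a transient decrease of their mRNA after lipopolysaccharide (LPS), a component of bacterial outer membranes that cells detect with TLR4. Each gene was represented by its brightest probe set with a single gene symbol. The lower of its values at 1 h and 2 h of LPS had to lie at least 0.8 log2 units below that at 0 h, and its value at 4 h at least 0.8 above that low point, in both genotypes. The value at 0 h had to be 5 or more in both, and symbols made of Zfp and 3 digits were left out. Of 18193 genes on the array, 6461 had the required starting level and 178 of these met the rule, which is 2.75%. These measurements chose the genes, so the drop and the recovery are given below as a description, with no test.

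The cells were peritoneal macrophages elicited with thioglycollate, which recruits such cells when it is injected into the peritoneum. One group of 4 samples came from mice labelled Zc3h12a-/- and the other 4 from wild-type mice. Each genotype was taken at 0 h without LPS and at 1, 2 and 4 h of 100 ng/ml LPS. Every genotype and time had 1 Affymetrix array, so no group had a replicate, and the labels do not say how many mice gave the cells. Regnase-1, the product of Zc3h12a, is an endonuclease known for cleaving cytokine mRNAs. Its brighter probe set read 6.73, 7.70, 8.75 and 8.50 at 0, 1, 2 and 4 h in the cells labelled knockout, against 6.12, 8.02, 8.87 and 8.57 in wild-type cells. The place of that probe set relative to the deleted part is not known here, so it checks nothing about the labels, and the cells are called labelled knockout.

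The macrophage label was checked with 8 defining markers, all above background on all 8 arrays. By limma, Adgre1 and Itgam among them were higher in labelled-knockout cells and Fcgr1 lower. Of 5 measured B cell markers, only Ighm was above background on all arrays, and the log2 of the list's summed signal lay between 8.84 and 9.52 in labelled-knockout cells, against 6.33 to 6.46 in wild-type cells. Ighm carried that sum, at 8.92, 9.45, 8.72 and 9.43 in labelled-knockout cells, against 5.29, 5.46, 5.58 and 5.46 in wild-type cells, and neither Cd79a nor Ms4a1, the other B cell markers tested, passed. The 8 mesothelial and stromal markers had a summed level of 8.73 to 9.38 in labelled-knockout cells, against 10.39 to 10.83 in wild-type cells, with Msln and Krt19 at background throughout. Of the other lists, S100a9 of neutrophils and Cd3e of T cells were higher in labelled-knockout cells by the same test, and Itgax of dendritic cells and Cpa3 of mast cells lower. No other tested marker of these lists passed, and they did not all go the same way. The differences were 0.12 for S100a8, 0.78 for Ngp and -0.12 for Camp of neutrophils, and -0.42 for Cd2 of T cells. They were 0.40 for Zbtb46 of dendritic cells, and -0.39 for Tpsb2, 0.19 for Kit and 0.97 for Hdc of mast cells. None of the 178 genes is on a marker list. In such bulk samples, fewer cells of a type and less RNA per cell cannot be told apart. The array-wide 75th percentile was lower at 2 h than at 0 h in both genotypes, at 4.90 at 0 h and 4.64 at 2 h in labelled-knockout cells, and at 4.99 at 0 h and 4.80 at 2 h in wild-type cells.

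An array measures the steady level of an mRNA, which depends on transcription and on decay. A level can drop quickly where the mRNA is short-lived or its decay is speeded up, and short-lived mRNAs are known to be common among those for transcription factors, zinc finger proteins and signalling regulators. In macrophages, LPS acts through TLR4 to switch on NF-kB, AP-1 and MAP kinases within minutes and, through secreted type I interferon, a later wave of interferon-induced genes. All values below are log2 intensities on the authors' RMA scale, given in the order 0, 1, 2 and 4 h unless stated otherwise. A drop is the value at 0 h minus the lower of those at 1 h and 2 h, a recovery is the value at 4 h minus that low point, and both are log2 differences.

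The promoters of 4 genes are shown first, as examples of genes that returned to their start or passed it. No gene still below its start at 4 h is among them. Trim21 and Irf2 ended above their starting level and hold an interferon response core, while Hhex and Zfp39 stand for the genes low at 2 h and at 1 h that returned to it. The sequences come from RefSeq on build GRCm38.p6 and run 5′ to 3′ on the gene's strand, from 250 bases before the start to 50 after it. Trim21 lies on the minus strand at chr7:102565433-102565732, Irf2 on the plus strand at chr8:46739495-46739794, Hhex on the plus strand at chr19:37434591-37434890 and Zfp39 on the minus strand at chr11:58904176-58904475. Capitals mark the interferon response core GAAANNGAAA in the promoters of Trim21 and Irf2 and the SP-type box GGGCGG in those of Hhex and Zfp39, searched on both strands.
Trim21: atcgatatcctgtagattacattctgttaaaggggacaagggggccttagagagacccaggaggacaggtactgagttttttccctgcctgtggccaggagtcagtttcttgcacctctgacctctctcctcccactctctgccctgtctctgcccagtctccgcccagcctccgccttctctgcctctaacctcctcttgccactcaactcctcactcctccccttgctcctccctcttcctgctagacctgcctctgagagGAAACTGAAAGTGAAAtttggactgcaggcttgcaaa
Irf2: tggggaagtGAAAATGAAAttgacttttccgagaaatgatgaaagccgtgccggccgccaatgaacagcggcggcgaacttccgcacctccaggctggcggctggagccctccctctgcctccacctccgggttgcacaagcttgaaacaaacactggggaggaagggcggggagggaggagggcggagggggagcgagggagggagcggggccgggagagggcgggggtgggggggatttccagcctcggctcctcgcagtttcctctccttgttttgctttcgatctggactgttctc
Hhex: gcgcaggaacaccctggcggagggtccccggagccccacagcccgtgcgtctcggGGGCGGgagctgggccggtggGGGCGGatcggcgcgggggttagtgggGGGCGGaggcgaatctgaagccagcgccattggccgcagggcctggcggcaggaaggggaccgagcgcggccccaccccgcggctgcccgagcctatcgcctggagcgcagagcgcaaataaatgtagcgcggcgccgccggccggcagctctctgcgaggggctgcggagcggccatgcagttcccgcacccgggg
Zfp39: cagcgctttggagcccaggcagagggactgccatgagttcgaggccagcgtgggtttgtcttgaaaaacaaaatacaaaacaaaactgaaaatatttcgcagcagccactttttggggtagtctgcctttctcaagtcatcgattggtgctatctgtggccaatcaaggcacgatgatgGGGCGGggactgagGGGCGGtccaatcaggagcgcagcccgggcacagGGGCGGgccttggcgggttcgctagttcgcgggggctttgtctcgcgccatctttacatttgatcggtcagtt

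In the Trim21 promoter 2 overlapping copies of the core began at bases 14 and 20, counting the start as base 1, and in that of Irf2 a single copy began 241 bases before it. The boxes of Hhex began 195, 174 and 147 bases before the start, and those of Zfp39 71, 57 and 23 bases before it. Promoters were found for 144 of the 178 genes, taking the first listed start of each. The interferon core was present in 9 of the 144, or 6.25%, against 3.24% of the 5335 promoters of genes with the same starting level and 3.49% of all 27025 promoters. Trim21 and Irf2 were the only 2 with the core among 15 genes that ended above their start in both genotypes. The core was also in 3 of 34 genes that ended lower in both, 2 of 66 that returned and 2 of 29 whose class differed between genotypes. GGGCGG was present in 64.6% of the 144, against 67.8% of the promoters of genes with that starting level and 35.9% of all promoters. The ETS-type motif CCGGAAG was in 22.9%, against 21.1% and 9.12%, and the TATA motif TATAAA in 6.94%, against 6.92% and 14.2%. The median number of CpG dinucleotides was 21, against 22 and 7. For these 3 motifs and the CpG count, the 144 promoters were closer to those of genes of that starting level than to all promoters. The E-box CACGTG was in 6.25%, against 11.5% and 7.24%, the CRE-type motif TGACGT in 9.03%, against 13.5% and 7.64%, and the AP-1 motif TGANTCA in 2.78%, against 5.12% and 7.93%. CCAAT was in 37.5%, against 37.9% in both. A match to a motif describes letters and is not evidence of binding.

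The low point came at 2 h in both genotypes for 125 genes and at 1 h in both for 41. For the other 12 it came at different times in the 2 genotypes. The 41 genes low at 1 h had a median change from 0 h of -1.26 at 1 h, -0.58 at 2 h and 0.13 at 4 h in labelled-knockout cells, against -1.44, -0.59 and 0.08 in wild-type cells. The 125 genes low at 2 h had -0.46, -1.66 and -0.28 in labelled-knockout cells, against -0.60, -1.54 and -0.34 in wild-type cells. The first set was thus already partway back at 2 h, when the second was lowest. All 6461 genes of that starting level had medians of -0.12, -0.30 and -0.27 at 1, 2 and 4 h in labelled-knockout cells, against -0.14, -0.24 and -0.24 in wild-type cells.

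**Figure D1:**
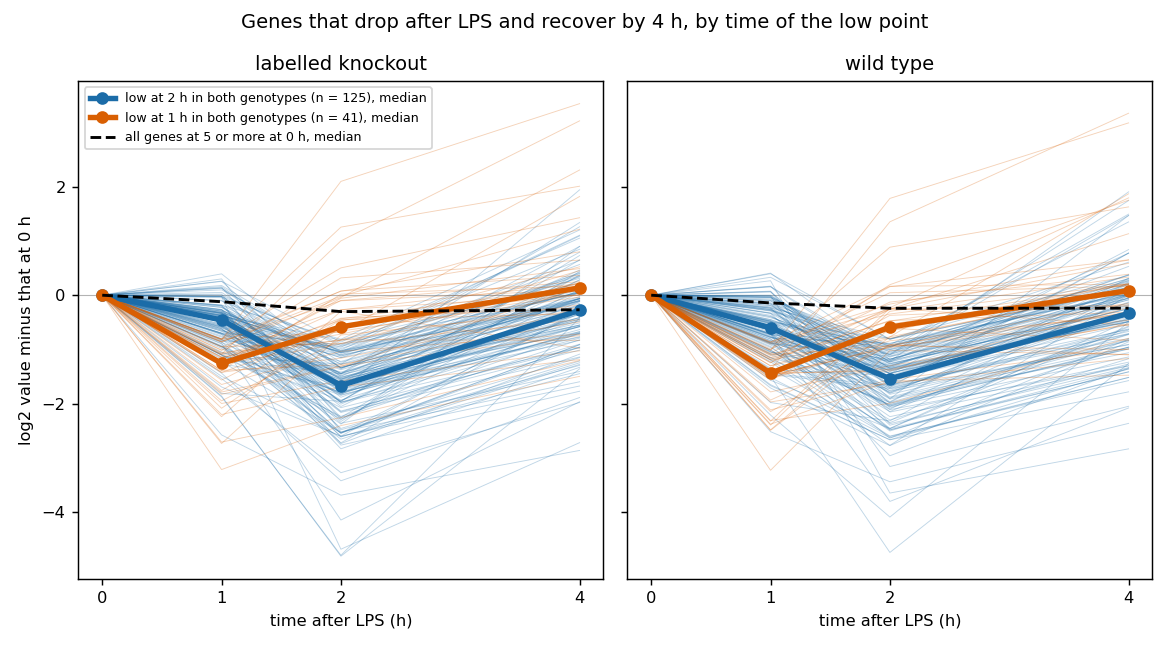
Change of log2 value from 0 h (vertical axis) against hours after LPS (horizontal axis) in labelled-knockout cells (left) and wild-type cells (right), 1 array a point. Thin lines are single genes, thick lines the medians of the 41 genes low at 1 h (orange) and the 125 low at 2 h (blue), and the dashed line is the median of all 6461 genes at 5 or more at 0 h, whose lowest point is -0.30, at 2 h in labelled-knockout cells.

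Over both genotypes, the mean drop ranged from 0.84 to 4.44 among genes with a low point above background in both genotypes, and over all 178 it had a median of 1.53, which is 2.89-fold. The drop was 1 or more in both genotypes for 142 genes and 2 or more for 31. By 4 h, 79 genes lay within 0.5 of their starting level in both genotypes, 45 were still lower by more than 0.5 and 21 were higher by more than 0.5. The other 33 fell into different classes in the 2 genotypes. Of the 41 genes low at 1 h, 9 ended higher and 7 lower, and of the 125 low at 2 h, 11 ended higher and 37 lower.

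Tifab and Hhex were at the top of the drops. Tifab, which encodes a TIFA-related inhibitor of TRAF6 signalling, read 7.34, 5.48, 2.53 and 5.98 in labelled-knockout cells, against 7.48, 5.99, 2.74 and 6.22 in wild-type cells. Its 2 h values lay at or below background in both genotypes, so the drop was at least 4.13 in labelled-knockout cells and at least 4.22 in wild-type cells. The order of Tifab and Hhex is therefore not settled. Hhex, a homeobox repressor of blood cell and endoderm development, read 8.42, 6.55, 3.63 and 8.0 in labelled-knockout cells, against 8.59, 6.38, 4.50 and 8.09 in wild-type cells. Its mean drop of 4.44, or 21.7-fold, was followed by a recovery of 3.98, to within 0.5 of the start in both genotypes. Jun, the AP-1 subunit, read 10.07, 10.04, 5.39 and 7.35 in labelled-knockout cells, against 10.05, 10.31, 6.40 and 7.21 in wild-type cells. Jun was about as high at 1 h as at 0 h in both genotypes, and its level at 4 h was still 2.77 below the start on average.

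Plekhm1, an adaptor for fusion with the lysosome, read 9.29, 8.40, 5.14 and 7.32 in labelled-knockout cells, against 9.24, 8.53, 5.44 and 7.16 in wild-type cells. AI467606, a protein-coding gene with no role given here, read 9.43, 6.85, 5.74 and 6.57 in labelled-knockout cells, against 9.45, 6.94, 6.01 and 7.09 in wild-type cells. Both remained more than 2 units below their start at 4 h on average. Ssc4d, a scavenger receptor cysteine-rich protein, read 7.02, 5.58, 3.60 and 5.13 in labelled-knockout cells, against 7.04, 5.53, 4.42 and 5.53 in wild-type cells. The long noncoding RNA E430024I08Rik read 7.78, 6.24, 4.51 and 5.80 in labelled-knockout cells, against 7.81, 6.62, 5.21 and 6.24 in wild-type cells. Map3k4, a kinase upstream of p38 and JNK, read 6.13, 6.43, 3.61 and 4.53 in labelled-knockout cells, against 6.72, 6.71, 3.57 and 4.68 in wild-type cells. Map3k4 had no lower value at 1 h than at 0 h in labelled-knockout cells and a nearly equal value in wild-type cells. Like Jun, it lay low at 2 h.

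Snhg10, the host RNA of a small nucleolar RNA, was low at 1 h and read 8.57, 5.35, 6.16 and 7.07 in labelled-knockout cells, against 8.75, 6.37, 7.16 and 7.27 in wild-type cells. That value comes from a probe set that can match several transcripts, and another probe set of Snhg10 had drops of only 0.84 in labelled-knockout cells and 0.59 in wild-type cells. Tor4a, a torsin family ATPase, read 7.72, 6.23, 5.11 and 6.28 in labelled-knockout cells, against 7.77, 6.11, 5.11 and 6.41 in wild-type cells. Ccdc28b, a coiled-coil protein linked to cilia, read 5.55, 4.33, 3.02 and 4.64 in labelled-knockout cells, against 6.13, 4.48, 3.47 and 4.35 in wild-type cells. Its low point was at background in labelled-knockout cells, which gives a drop of at least 2.34 there. Among these 16 genes of deepest drop, 13 were low at 2 h and 3, Snhg10, Zfp39 and Zfp955a, at 1 h.

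**Figure D2:**
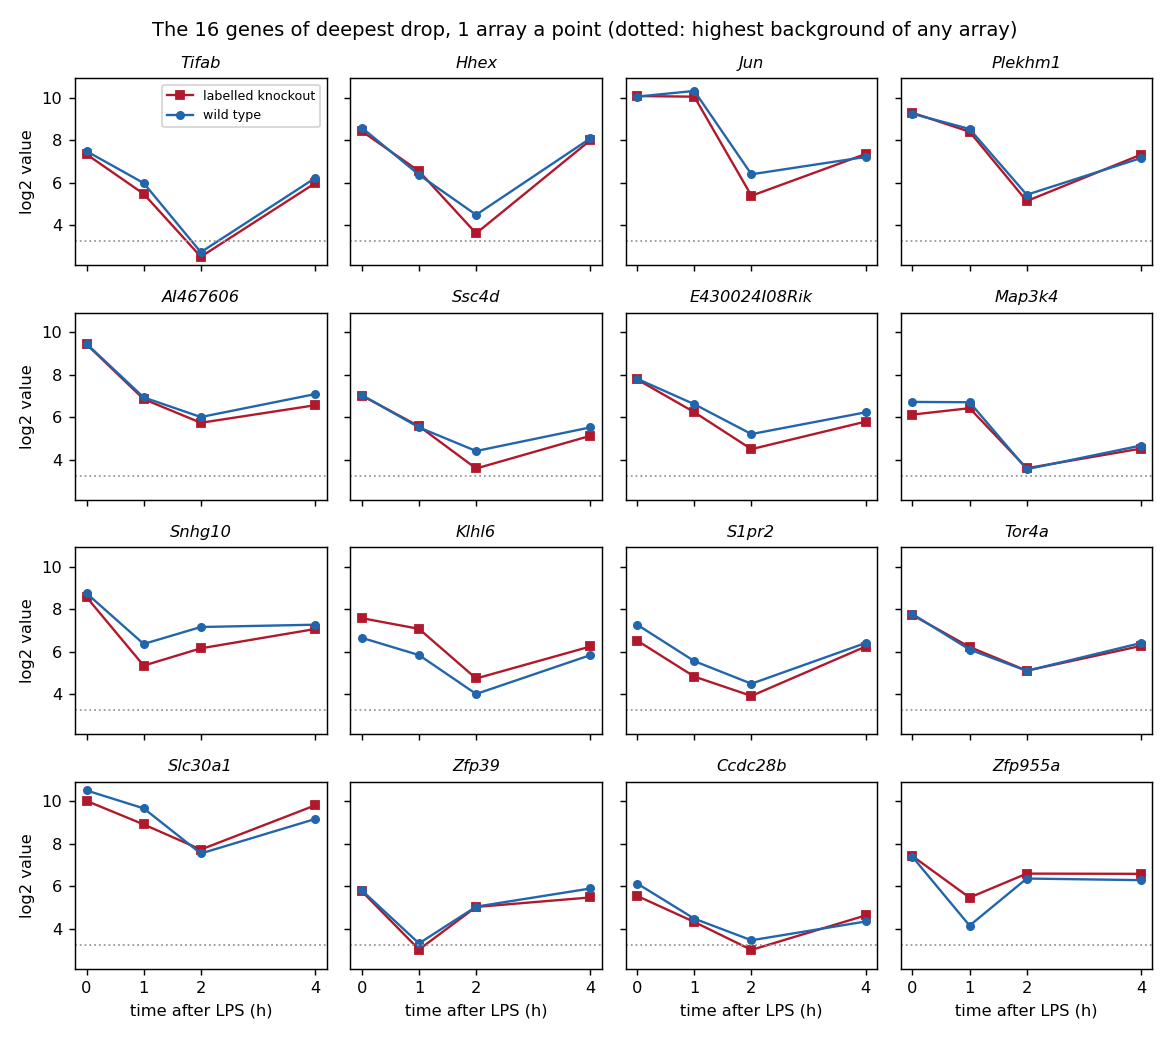
Log2 values (vertical axes) against hours after LPS (horizontal axes) of the 16 genes with the deepest mean drop, in labelled-knockout cells (red squares) and wild-type cells (blue circles), 1 array a point. The dotted line is the highest background of any array, 3.26, and Tifab is the gene that reached it in both genotypes, while Snhg10, Zfp39 and Zfp955a are lowest at 1 h.

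Grouped by function, the C2H2 zinc finger genes stood at one end of the timing. This family of DNA-binding proteins includes many KRAB repressors. Of the 10 such genes, 9 were low at 1 h in both genotypes, against 41 of all 178 genes. Zkscan8 was low at 1 h in labelled-knockout cells and at 2 h in wild-type cells. Zfp39 read 5.77, 3.03, 5.03 and 5.48 in labelled-knockout cells, against 5.81, 3.32, 5.05 and 5.90 in wild-type cells, and its low point was at background in labelled-knockout cells. Zfp955a read 7.42, 5.47, 6.60 and 6.59 in labelled-knockout cells, against 7.38, 4.16, 6.37 and 6.29 in wild-type cells. Zfp84 read 7.34, 5.58, 6.88 and 7.0 in labelled-knockout cells, against 7.32, 4.84, 6.71 and 6.48 in wild-type cells. All 3 were higher at 2 h than at 1 h by more than 1 unit in both genotypes. The others were Rbak, Zfp87, Zbtb42, Zfp51, Zfp280b and Zfp35, with mean drops between 1.12 and 2.07. At 4 h, 3 of the 10 were back within 0.5 of the start in both genotypes, 4 were lower, 3 differed in class between genotypes and none ended higher in both.

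Of a list of 68 KRAB and C2H2 genes not named Zfp plus 3 digits, 17 had the required starting level. Of these, 6 met the rule, or 35.3%, against 2.75% of all genes of that level. Median mean drop over the 17 was 1.01, against 0.33 over all genes. The share of 35.3% does not cover the left-out symbols made of Zfp and 3 digits. Of these, a smaller part, 9 of 77 at that level, met the other criteria. None of 17 genes of that starting level on a ZBTB list met the rule, but Zbtb42, which met it, is not on that list. None of 10 clock genes met it, although they had a median 4 h minus 0 h of -1.60, against -0.26 over all genes.

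The other DNA-binding factors were mostly low at 2 h, in 7 of 8 cases, against 125 of all 178 genes. Irf8, an interferon regulatory factor needed for macrophage development, read 7.68, 6.54, 6.41 and 8.94 in labelled-knockout cells, against 8.38, 7.01, 6.90 and 8.21 in wild-type cells. Irf2, a related factor that can repress interferon-induced genes, read 9.90, 10.0, 8.86 and 10.47 in labelled-knockout cells, against 9.66, 9.81, 8.43 and 10.43 in wild-type cells. Maf, a bZIP factor of macrophage identity, read 10.38, 9.82, 9.28 and 10.79 in labelled-knockout cells, against 10.59, 10.19, 9.27 and 10.86 in wild-type cells. At 4 h Irf2 was above its start by more than 0.5 in both genotypes, Irf8 in labelled-knockout cells only, and Maf in neither. Of the other probe sets of these genes, 4 of Maf, 1 of Irf8 and 1 of Jun also met the criteria, with some differences in time and end. A probe set of Maf was lowest at 1 h in both genotypes and that of Irf8 at 1 h in wild-type cells. The other Irf8 probe set read 7.88 at 4 h and 6.27 at 0 h in labelled-knockout cells, against 7.52 at 4 h and 6.68 at 0 h in wild-type cells, so it ended above its start in both. Csrnp2, Mlxip and Thap7 completed the group, and Thap7 was the 1 gene low at 1 h. Of 30 macrophage identity factors at the required level, the rule was met by Hhex, Irf8 and Maf, or 10%. The share of all genes of that level was 2.75%.

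Chromatin genes were low at 2 h in 10 of 13 cases and returned to within 0.5 of the start in 9. Over all 178 genes these counts were 125 and 79. H2aw, a histone H2A gene, read 7.34, 6.23, 5.39 and 7.62 in labelled-knockout cells, against 8.50, 7.28, 5.73 and 8.51 in wild-type cells. Nsd1, a histone H3 methyltransferase, read 7.56, 7.30, 4.83 and 6.48 in labelled-knockout cells, against 7.69, 7.77, 5.62 and 7.05 in wild-type cells. Setd1b, another histone methyltransferase, was low at 1 h and read 7.22, 5.84, 7.25 and 7.40 in labelled-knockout cells, against 7.49, 6.50, 7.54 and 7.66 in wild-type cells. Setd1b was already back at its start at 2 h, when Nsd1 was lowest. Phf23 and Nfrkb, a subunit of the INO80 remodeller, were also low at 1 h. Tfpt, another INO80 subunit, the histone demethylase Kdm3b, the acetyltransferase Kat14, Phf14, Phf21a, Baz1b, Atf7ip and Phip were low at 2 h, with mean drops between 1.06 and 2.43. Atf7ip is counted as returned, but its other probe set of that starting level recovered by only 0.58 in labelled-knockout cells and 0.23 in wild-type cells. That probe set read 5.53 at 0 h and 3.78 at 4 h in labelled-knockout cells, against 5.98 and 3.87 in wild-type cells.

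Genes for RNA polymerase II, RNA processing and RNA decay were divided between the times, with 4 low at 1 h, 5 at 2 h and 2 that differed between genotypes. Zc3h12d encodes Regnase-4, a relative of Regnase-1, and read 5.99, 5.09, 3.45 and 5.67 in labelled-knockout cells, against 6.36, 5.71, 4.32 and 5.63 in wild-type cells. Rprd1a, a protein that binds the polymerase's C-terminal domain, was low at 1 h and read 7.0, 4.76, 6.70 and 6.02 in labelled-knockout cells, against 6.90, 4.58, 6.66 and 6.34 in wild-type cells. Ints5, a subunit of the Integrator complex, was low at 1 h and read 8.52, 6.95, 8.08 and 8.68 in labelled-knockout cells, against 8.80, 7.24, 8.43 and 8.61 in wild-type cells. Another Integrator subunit, Ints9, was low at 2 h, with a mean drop of 1.31. The mRNA export factor gene Nxt1 and the tRNA-modifying enzyme gene Trit1 were low at 1 h, and Scnm1, Zc3h4 and the Mediator subunit gene Med17 at 2 h. Aar2, a splicing factor, and Rpp25l differed in time between genotypes.

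Of 13 mitochondrial genes, 10 were back within 0.5 of the start at 4 h in both genotypes, against 79 of all 178 genes. None ended higher in both. Polrmt, the mitochondrial RNA polymerase, read 7.10, 6.15, 5.30 and 6.38 in labelled-knockout cells, against 7.23, 6.21, 4.88 and 6.66 in wild-type cells. The mitochondrial ribosome gene Mrpl44 was low at 1 h and read 9.06, 7.90, 8.60 and 9.07 in labelled-knockout cells, against 9.14, 7.83, 8.34 and 9.26 in wild-type cells. Idh2, the mitochondrial isocitrate dehydrogenase, read 6.53, 6.34, 4.20 and 6.96 in labelled-knockout cells, against 7.15, 6.63, 5.18 and 7.46 in wild-type cells. A second Idh2 probe set instead had its lowest values at 4 h, 3.95 in labelled-knockout cells and 4.06 in wild-type cells, so the recovery of Idh2 was not shared by both. Mrps2 and Fastkd3 and the fission factor gene Mief2 were also low at 1 h, Lars2, Tfb1m, Pdss2, Mrps27 and Mrpl1 at 2 h, and Mtres1 and Mrpl43 at different times. Of 62 mitochondrial ribosomal protein genes with the required starting level, 5 met the rule, or 8.06%, against 2.75% of all genes of that level.

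**Figure D3:**
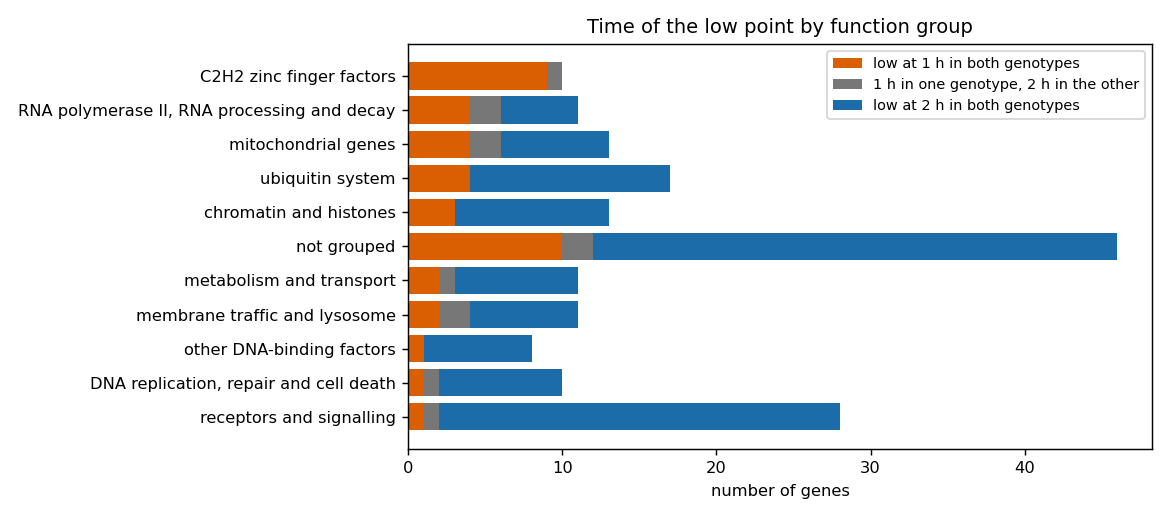
Number of genes (horizontal axis) low at 1 h in both genotypes (orange), at different times (grey) and at 2 h in both genotypes (blue), for each function group (vertical axis). The groups were assembled after the values were seen, and the C2H2 zinc finger bar is orange in 9 of 10 genes and the receptor and signalling bar blue in 26 of 28.

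Receptor and signalling genes were at the other end of the timing. Of these, 26 of 28 were low at 2 h in both genotypes, against 125 of all 178 genes. Tlr4, the LPS receptor itself, read 9.06, 8.83, 7.79 and 8.96 in labelled-knockout cells, against 9.24, 8.54, 7.26 and 8.52 in wild-type cells. Ptpn6, the phosphatase SHP-1 that restrains immune receptor signalling, read 7.30, 6.83, 5.35 and 7.95 in labelled-knockout cells, against 7.42, 6.92, 5.78 and 8.20 in wild-type cells. S1pr2, a sphingosine 1-phosphate receptor, read 6.53, 4.84, 3.93 and 6.25 in labelled-knockout cells, against 7.27, 5.56, 4.50 and 6.42 in wild-type cells. Ptpn6 ended above its start in both genotypes, while Tlr4 and S1pr2 did not exceed theirs. Gna11, a G protein subunit, was low at 1 h in both genotypes, and Dok1, an adaptor that dampens signalling, at 2 h in labelled-knockout cells and at 1 h in wild-type cells.

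Several of these genes belong to tyrosine kinase and phosphoinositide signalling in leukocytes. Vav1, a signal transducer of leukocytes, read 6.63, 6.77, 4.34 and 6.69 in labelled-knockout cells, against 6.94, 7.10, 5.80 and 7.32 in wild-type cells. Its drop was 2.29 in labelled-knockout cells, against 1.14 in wild-type cells. Other genes of the receptor and signalling group, from varied pathways, were Tyk2, a Janus kinase of interferon receptors, Pik3cd, Sos1, Themis2, Cytip, Nkiras2 and Pip4k2b. Akap7, Lrrk1, Fzd7, Dusp12, Pde8b, Plekho1, Iqsec2 and Cybc1, a chaperone of the phagocyte NADPH oxidase, were also in that group. Tiam2, Arhgap12, Arhgap17, Srgap2 and Stard8 regulate small GTPases. Themis2, Srgap2, Iqsec2 and Arhgap17 ended above their start in both genotypes, by 0.82 to 1.28 on average.

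Genes of the ubiquitin system were low at 2 h in 13 of 17 cases, against 125 of all 178 genes. Of the 17, 6 ended above their start in both genotypes, against 21 of the 178. Keap1, the sensor that targets NRF2 for degradation, read 5.70, 5.21, 4.26 and 7.04 in labelled-knockout cells, against 5.66, 4.79, 4.44 and 7.57 in wild-type cells. Rnf180, a ubiquitin ligase, read 5.58, 5.84, 3.82 and 7.52 in labelled-knockout cells, against 5.55, 5.72, 3.64 and 7.02 in wild-type cells. Klhl6, a cullin-3 adaptor of lymphoid cells, read 7.58, 7.08, 4.75 and 6.25 in labelled-knockout cells, against 6.66, 5.85, 4.02 and 5.85 in wild-type cells. Keap1 and Rnf180 thus ended 1.6 or more above their start on average, and Klhl6 ended below it. Vhl, which targets hypoxia-inducible factors for degradation, was low at 1 h and read 8.49, 7.06, 7.87 and 9.01 in labelled-knockout cells, against 8.83, 7.53, 8.24 and 9.04 in wild-type cells.

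Other cullin adaptors that met the rule were Klhl20, Klhl22, Kctd21, Asb3 and Asb13. Of 47 F-box, KLHL, SOCS-box and KCTD genes with the required level, 7 met it, or 14.9%, against 2.75% of all genes of that level. Rnf169, Cops7a, Usp40, the ubiquitin ligase gene Marchf1 and Rbck1, a subunit of the linear ubiquitin ligase, were low at 2 h. Their mean drops lay between 0.92 and 1.73.

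A small set low at 1 h read far above its start at 4 h. Tor3a, an interferon-induced torsin, read 6.28, 5.19, 7.28 and 9.49 in labelled-knockout cells, against 6.49, 5.12, 7.85 and 9.85 in wild-type cells. Trim21, an interferon-induced ubiquitin ligase and antibody receptor, read 8.23, 7.40, 10.33 and 11.76 in labelled-knockout cells, against 8.18, 7.17, 9.97 and 11.36 in wild-type cells. Both were already above their start at 2 h, and their 4 h values exceeded it by 3.28 and 3.35 on average. Tmem229b, a membrane protein, read 7.63, 6.67, 7.58 and 9.93 in labelled-knockout cells, against 8.16, 6.92, 7.93 and 9.95 in wild-type cells. Trim14, an adaptor of antiviral signalling, read 6.19, 5.39, 5.51 and 8.01 in labelled-knockout cells, against 6.20, 5.0, 5.43 and 8.07 in wild-type cells. Another Tor3a probe set, which can match several transcripts, had drops of only 0.28 in labelled-knockout cells and 0.56 in wild-type cells. Usp42, a ubiquitin protease, Gypc, a glycophorin, Nat2, Trit1 and Plekhf2 completed the 9 genes of this kind, with 4 h minus 0 h between 0.65 and 1.82. Another Plekhf2 probe set had drops of only 0.40 in labelled-knockout cells and 0.55 in wild-type cells. Among these 9 genes promoters were found for Tmem229b, Trit1 and Trim21, and of them only that of Trim21, printed above, held the interferon core.

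**Figure D4:**
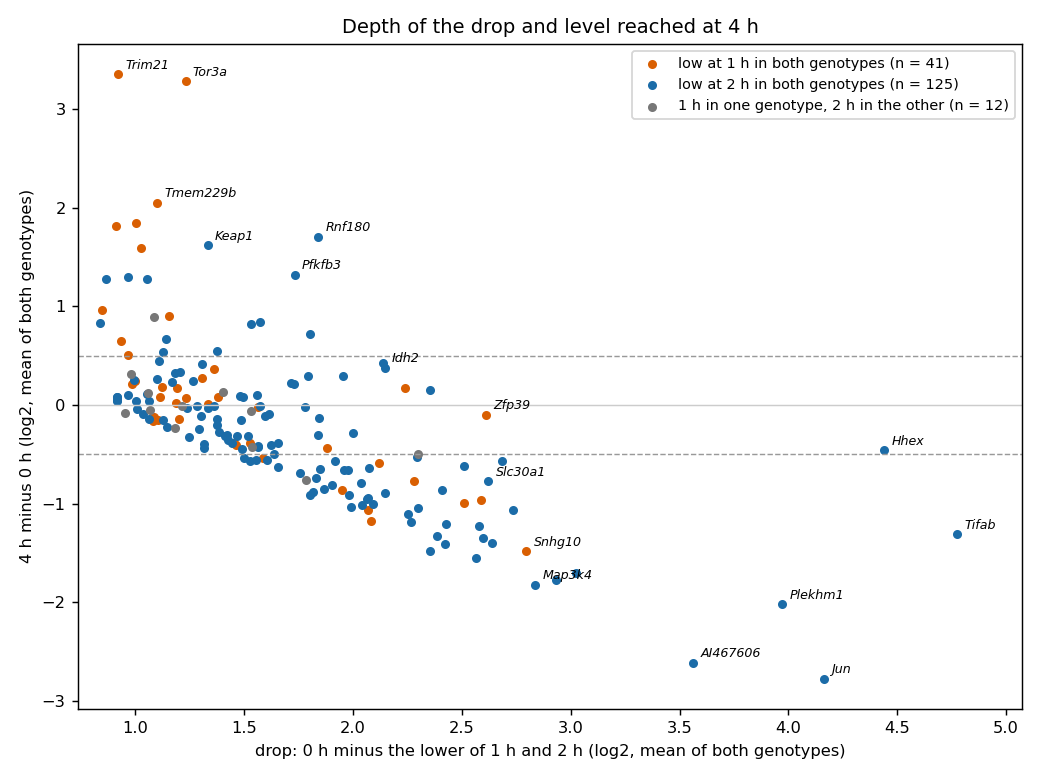
Value at 4 h minus that at 0 h (vertical axis) against the drop (horizontal axis), both log2 and averaged over the 2 genotypes, for the 178 genes coloured by time of the low point. Both axes contain the 0 h value and the lower edge is set by the required recovery of 0.8, so the slope is no result, and Tifab is drawn at its measured difference although its low point was at background, while Trim21 and Tor3a lie above 3 on the vertical axis and Jun and AI467606 below -2.5.

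Metabolic and transport genes were low at 2 h in 8 of 11 cases, against 125 of all 178 genes. Pfkfb3, whose product drives glycolysis, read 8.40, 7.59, 6.03 and 9.30 in labelled-knockout cells, against 8.23, 7.40, 7.14 and 9.98 in wild-type cells. Slc30a1, the zinc exporter, read 10.01, 8.91, 7.73 and 9.80 in labelled-knockout cells, against 10.50, 9.66, 7.54 and 9.16 in wild-type cells. Txnip, an inhibitor of thioredoxin and of glucose uptake, read 9.57, 7.28, 7.12 and 8.86 in labelled-knockout cells, against 9.63, 7.49, 8.02 and 9.35 in wild-type cells. Pfkfb3 ended above its start in both genotypes. Txnip ended below its start in both, but by more than 0.5 in labelled-knockout cells only, and Slc30a1 was further below in wild-type cells. Nat2, an N-acetyltransferase, and Ndst2, a heparan sulfate enzyme, were low at 1 h. Mvd of sterol synthesis, Gpam of triglyceride synthesis, Ppp1r3b, Fcsk, Ppcs and Hmox2 were low at 2 h.

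Membrane traffic genes included Cog4 and Cog8, subunits of a Golgi tethering complex. Cog4 read 6.01, 5.68, 4.88 and 6.15 in labelled-knockout cells, against 6.22, 5.40, 6.08 and 6.72 in wild-type cells. Cog8 read 6.03, 5.41, 4.94 and 6.07 in labelled-knockout cells, against 6.33, 5.30, 5.80 and 6.54 in wild-type cells. Each was low at 2 h in labelled-knockout cells and at 1 h in wild-type cells. Hps4, Ap3m2, the SNARE gene Stx2, Zfyve26, Mtmr3 and Pik3r4 were low at 2 h, and Ap5b1 and Plekhf2 at 1 h. Cog4 and Fcsk, on chromosome 8, were the 1 pair of the 178 that neighbour each other in the order of protein-coding genes in the RefSeq table of GRCm38.p6. The genes lay on 20 chromosomes, with at most 14 on any of them.

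Genes of DNA replication, repair and cell death were low at 2 h in 8 of 10 cases and back within 0.5 of the start in 7. Over all 178 genes these counts were 125 and 79. Gins1, a subunit of the replicative helicase, read 6.18, 5.98, 4.30 and 5.96 in labelled-knockout cells, against 6.43, 6.17, 4.63 and 6.39 in wild-type cells. Wee1, a kinase that holds back entry into mitosis, read 5.71, 5.34, 4.66 and 5.77 in labelled-knockout cells, against 6.17, 5.29, 4.03 and 5.88 in wild-type cells. Bid, a pro-apoptotic BCL2 family gene, was low at 1 h in labelled-knockout cells and at 2 h in wild-type cells and read 8.79, 7.83, 7.87 and 9.84 in labelled-knockout cells, against 9.03, 8.20, 7.82 and 9.76 in wild-type cells. Bid ended higher than it began in both genotypes. Rad52 was low at 1 h, and Orc5, Pot1a, Fbh1, Ciz1, Fam111a and Casp2 at 2 h. Of 15 listed DNA repair genes at the required level, Rad52 alone met the rule, or 6.67%, against 2.75% of all genes of that level.

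The remaining 46 genes were placed in no group. Of these, 34 were low at 2 h in both genotypes, against 125 of all 178 genes. Besides those described, the genes low at 1 h were A630026N12Rik, Alkbh4, Lratd2, Gm9958, Lrig2 and Gm9776. Those low at 2 h were Wdr76, Cep95, D6Wsu163e, Cfap20, Tmem140, Ppp1r21, Traf3ip1, Uhrf1bp1, Cfap97, B430306N03Rik, Armt1, 1700017B05Rik, Nudt13, Tysnd1, Rfesd, Tmem18, D5Ertd579e, Nosip, Hs1bp3, Wdr92, 2010315B03Rik, Mppe1, Fam114a1, Cbr4, Adck1, BC048403, Tmem209, Rnpepl1 and AB124611. 1700094D03Rik and BC002059 were low at different times in the 2 genotypes. The mean drops of the 46 reached from 0.91 for AB124611 to 3.56 for AI467606. Over the whole set, 172 genes code for protein and 6 are long noncoding RNAs in the RefSeq table.

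The thresholds run through a continuous range of values. Just inside, Lratd2 read 9.16, 6.96, 7.48 and 7.98 in labelled-knockout cells, against 9.17, 7.20, 7.54 and 8.0 in wild-type cells, and its recovery of 0.80 in wild-type cells decided its place. Tyk2 read 5.80, 5.51, 4.24 and 6.08 in labelled-knockout cells, against 6.19, 5.70, 5.39 and 6.56 in wild-type cells, with a drop of 0.80 in wild-type cells. AB124611, with a drop of 0.80 in wild-type cells, and Trim14, with one of 0.81 in labelled-knockout cells, were the next. Just outside, Dclre1a, a DNA crosslink repair nuclease, read 6.09, 4.97, 3.81 and 4.61 in labelled-knockout cells, against 5.89, 4.61, 3.99 and 4.87 in wild-type cells. Pold1, the catalytic subunit of DNA polymerase delta, read 7.98, 7.74, 5.25 and 6.27 in labelled-knockout cells, against 7.87, 7.45, 5.76 and 6.56 in wild-type cells. Both had a low point at 2 h and a partial return, as did the next pair. Cpt2, a mitochondrial fatty acid enzyme, read 5.04, 4.74, 3.20 and 4.41 in labelled-knockout cells, against 5.19, 4.60, 3.76 and 4.56 in wild-type cells. Akap10, an anchor of protein kinase A, read 5.52, 5.63, 4.20 and 4.99 in labelled-knockout cells, against 5.75, 5.91, 4.08 and 4.93 in wild-type cells. The deciding recovery was 0.80 for Dclre1a and 0.80 for Akap10, both in labelled-knockout cells, and 0.80 for Pold1 and 0.80 for Cpt2, both in wild-type cells, and each was just under 0.8 before rounding.

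Of the 178 genes, 28 had a further probe set with the required starting level. Among these 32 further probe sets, 31 had a drop and a recovery of some size, however small, in both genotypes and 17 met the full criteria. Some of those recoveries were slight. That of Mrpl1 was 0.13 in labelled-knockout cells and 0.01 in wild-type cells. For AI467606 it was 0.42 in labelled-knockout cells and 0.21 in wild-type cells. The probe set without a recovery was that of Idh2. For 38 genes the probe set used can match several transcripts by its name ending. Of the other gene lists, the rule was met by 1 of 9 small nucleolar RNA host genes, 1 of 14 immediate early genes, 1 of 16 FOXO and insulin genes, 3 of 33 histone methylation genes, 1 of 39 general transcription factor and Mediator genes, 1 of 14 chemoattractant and lipid receptors, 1 of 29 tRNA genes and 2 of 17 apoptosis genes. It was met by none of 15 BTG, TOB and CCR4-NOT genes, 21 TGF-beta and BMP genes, 12 cyclin and CDK inhibitor genes and 8 housekeeping genes. Over all genes of the starting level the share was 2.75%. Where a list named here had a gene that met the rule, its share lay between 2.56% and 11.8%. The lowest was that of general transcription factor and Mediator genes, and the tRNA genes had 3.45%. Some of these lists hold few genes at the starting level, so 1 gene moves their share by several percent.

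The level of each gene between genotypes was not used by the rule and was tested with limma over all 12540 genes that passed a filter on low values, with time as a block. All 178 genes passed that filter. Of them, 19 differed at an adjusted p below 0.05, which is 10.7%, against 13.5% of all genes tested. In labelled-knockout cells 3 rose, or 1.69% against 4.75% of all genes, and 16 fell, or 8.99% against 8.72%. The shares lay near or below those of all genes, so the count says nothing particular to these genes. After cyclic loess 6 were higher and 9 lower, so the split depends on scaling. The median difference was -0.13 over the 178 genes and -0.04 over all genes tested, and the median SE over the 178 was 0.11.

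B430306N03Rik differed most clearly between genotypes. It read 8.78, 7.91, 6.96 and 8.48 in labelled-knockout cells, against 9.82, 8.79, 7.81 and 8.99 in wild-type cells, and every labelled-knockout value lay below the wild-type value of its time. The difference was -0.82 (SE 0.11, adjusted p = 0.00666 by limma). H2aw, given above, differed by -0.86 (SE 0.14, adjusted p = 0.0155). That probe set can match several transcripts, and the difference of H2aw was -0.27 without such probe sets and -0.56 with its probe sets averaged, neither past the threshold. Plekho1, a regulator of PI3K and AKT signalling, read 6.10, 5.77, 4.31 and 5.47 in labelled-knockout cells, against 7.20, 6.11, 5.18 and 6.21 in wild-type cells. It differed by -0.76 (SE 0.13, adjusted p = 0.0164). Pik3cd, the catalytic subunit of PI3K-delta, read 5.88, 5.85, 3.63 and 6.26 in labelled-knockout cells, against 6.66, 6.36, 5.0 and 6.86 in wild-type cells. It differed by -0.82 (SE 0.15, adjusted p = 0.0211), and the labelled-knockout value was the lower at all 4 times. With the probe sets of Pik3cd averaged the difference was -0.21 and did not pass. Its other probe sets lay at or near background, so they give no check of this difference.

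The 3 genes that rose in labelled-knockout cells were Klhl6, Fzd7 and Tmem18. Klhl6, given above, differed by 0.82 (SE 0.14, adjusted p = 0.016). Fzd7, a Wnt receptor, read 8.38, 7.95, 6.83 and 8.29 in labelled-knockout cells, against 7.95, 7.24, 5.50 and 7.48 in wild-type cells. Its difference was 0.82 (SE 0.15, adjusted p = 0.0199). Tmem18, a nuclear membrane protein, read 7.68, 6.61, 6.36 and 7.20 in labelled-knockout cells, against 6.80, 6.29, 5.0 and 6.44 in wild-type cells. Its difference was 0.83 (SE 0.16, adjusted p = 0.0247). At all 4 times the labelled-knockout value of these 3 genes was the higher.

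Among the further genes that fell, Pde8b, a cAMP phosphodiesterase, read 5.30, 4.87, 3.70 and 4.63 in labelled-knockout cells, against 6.63, 5.62, 4.14 and 5.27 in wild-type cells. Dusp12, a dual-specificity phosphatase, read 6.68, 5.97, 5.02 and 6.13 in labelled-knockout cells, against 6.97, 6.40, 5.74 and 6.75 in wild-type cells. The gene Rpp25l read 5.52, 4.26, 4.16 and 5.76 in labelled-knockout cells, against 6.24, 4.79, 5.51 and 6.26 in wild-type cells. Their differences were -0.79, -0.51 and -0.77. A second, dimmer probe set of Pde8b read 4.46, 4.25, 3.82 and 4.24 in labelled-knockout cells, against 4.44, 4.48, 4.04 and 4.24 in wild-type cells. It was nearly equal in the genotypes at 0 h and 4 h, so it did not share the difference there. With the probe sets of Pde8b averaged the difference was -0.45, still past the threshold. AB124611 read 9.0, 8.71, 7.98 and 9.06 in labelled-knockout cells, against 9.39, 9.15, 8.58 and 9.49 in wild-type cells, a difference of -0.47, and Idh2, given above, differed by -0.60. The probe set of Dusp12 can match several transcripts, and its other probe sets lay at or near background, so they give no check of this difference. The other 7 that fell were S1pr2, Ap5b1, Nxt1, Rbck1, Rnpepl1, Nsd1 and Ppcs, by 0.33 to 0.55 on the log2 scale.

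These calls rest on few arrays. An array left out takes its time out of the comparison. Of the 178 genes, 6 were called without 1 of the 0 h arrays (labelled knockout or wild type), 6 without 1 of the 2 h arrays, 5 without 1 of the 4 h arrays and 15 without 1 of the 1 h arrays. With the arrays centred on a housekeeping list the count was 44, with trend and robust settings 30, with a stricter filter 29 and without the time block 0. As a measure of RNA quality, the Actb control probe set at the 3′ end exceeded that at the 5′ end by 3.11, 2.61, 2.52 and 2.30 in labelled-knockout cells, against 2.64, 2.35, 2.43 and 2.16 in wild-type cells. The Gapdh pair gave 3.31, 2.95, 3.04 and 2.90 in labelled-knockout cells, against 3.01, 2.99, 3.16 and 2.98 in wild-type cells. The Actb excess was higher in labelled-knockout cells at each time, while that of Gapdh was higher there at 0 h and lower at 1, 2 and 4 h. The cell type markers given above also differed between genotypes. The part of RNA quality and of these markers in these results was not tested.

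**Figure D5:**
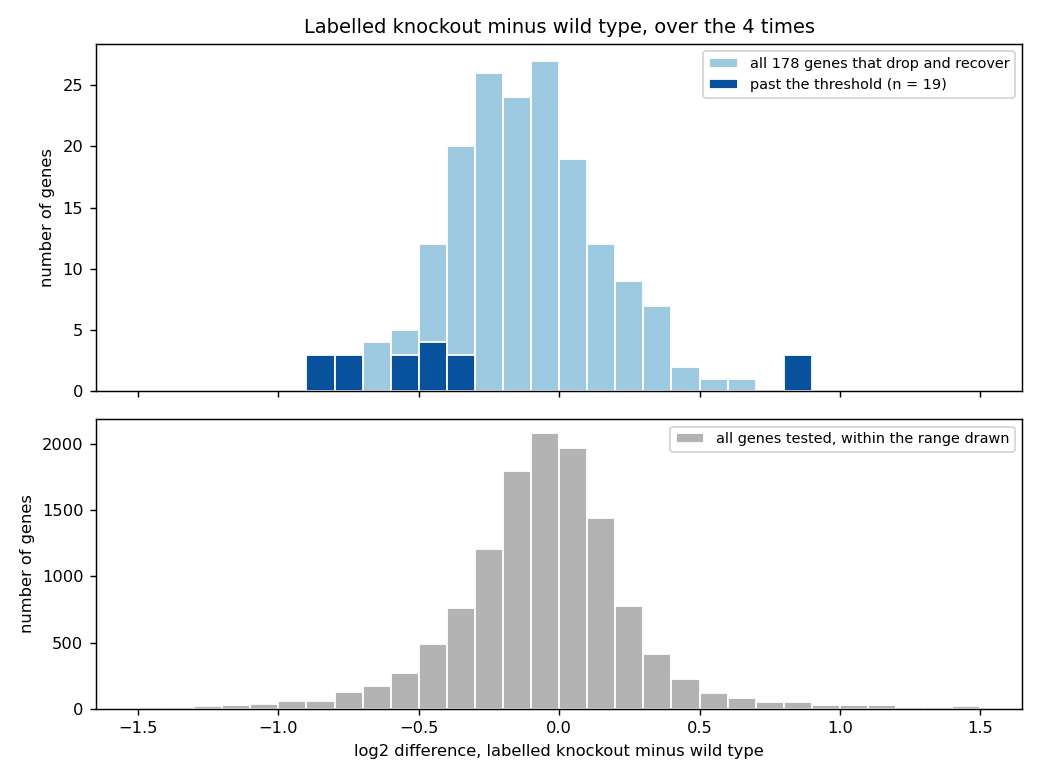
Number of genes (vertical axes) by log2 difference between labelled-knockout and wild-type cells over the 4 times (horizontal axis), for the 178 genes (top, dark bars the 19 past the threshold) and for all genes tested within the range drawn (bottom). Both distributions centre just below 0, at medians of -0.13 and -0.04.

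The depth of the drop was compared between genotypes next, which the rule limits because it required a drop in each. The drop was deeper in labelled-knockout cells for 94 of the 178 genes, or 52.8%, against 58.8% of the 6461 genes of that starting level. The median difference in drop was 0.06 for the 178 genes, against 0.05 for all. The drop of Pfkfb3 was 2.38 in labelled-knockout cells and 1.09 in wild-type cells, the widest excess in that direction. That of Zfp955a was 1.95 in labelled-knockout cells and 3.23 in wild-type cells, the widest in the other. These differences rest on 1 array for each value.

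A second fit asked whether LPS altered the difference between genotypes, comparing 1 to 4 h with 0 h. It called none of the 178 genes and none of the 12540 genes (0%) by limma. At an unadjusted p under 0.05 there were 4 of the 178 and 434 of all genes. With trend and robust settings 15 of all genes passed and none of the 178. The smallest p among the 178 was that of Pde8b, with an estimate of 0.71 (SE 0.21, adjusted p = 0.9996). Tlr4 followed with 0.60 (SE 0.20) and Mief2 with 0.58 (SE 0.21). With probe sets averaged over each gene the estimates were 0.27 for Pde8b, 0.15 for Tlr4 and 0.58 for Mief2. A missed threshold with 2 residual degrees of freedom does not show that the genotypes responded alike.

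Scaling moved the sizes of the changes and which genes met the criteria. The median change of the 6461 genes at 4 h was -0.27 in labelled-knockout cells and -0.24 in wild-type cells in the deposited values, and -0.12 in labelled-knockout cells and -0.10 in wild-type cells after cyclic loess. After centring on the housekeeping list it was -0.12 in labelled-knockout cells and -0.02 in wild-type cells. All 178 genes kept a drop and a recovery of some size in both genotypes under both scalings. They were chosen for changes of at least 0.8, so this says little. The time of the low point was kept by 176 genes after loess and 178 after centring. The number still more than 0.5 below the start in both genotypes was 34 under each, against 45 in the deposited values. The full criteria were met by 137 genes after cyclic loess, of which 132 were among the 178, and by 170 after centring, of which 149 were.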

How the data were processed

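RNA from 8 samples, 4 from labelled-knockout and 4 from wild-type cells, was labelled as biotinylated cRNA with the NuGEN Ovation system and hybridised to Affymetrix arrays, per the labels' protocols. For 45101 probe sets the authors deposited log2 values, made with RMA per the submitters' processing notes, which give no version here. RMA usually makes the arrays' distributions identical; here the medians lay between 3.14 and 3.21 and the 75th percentiles between 4.64 and 4.99, so they were close but not identical. A change in total mRNA may not be seen after such scaling. The number of arrays limits the precision.

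By the platform annotation, 34958 probe sets had 1 symbol, 932 several and 9211 were unnamed here. All 178 genes matched RefSeq's GRCm38.p6 table by Entrez identifier. Genes with a second-highest value of at least 3.16, the median of all values, were tested (12540). The genotype comparison used lmFit and eBayes of limma 3.58.1 (R 4.3.3) with time as a block (3 residual degrees of freedom); the change of the genotype difference after LPS had 2. P-values were Benjamini-Hochberg adjusted over all genes tested, with a threshold of 0.05. Nothing in the labels says that arrays came from separate animals. With 1 array for each genotype and time, the times served in place of replicates. The genotype p-values therefore measure how steady a difference was over the 4 times, not a spread between animals. A difference in cell preparation shared by all arrays of a genotype cannot be told apart from genotype. Background was the highest value on each array among 27 Bacillus control probe sets, 2.96 to 3.26. The fits and the rule were tested on simulated data.

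The genes and lists were chosen with earlier results of these data known. Function groups were assembled after seeing the values. Symbols with a letter after Zfp and 3 digits (Zfp955a, Zfp280b) were kept. Named with all values were the 16 deepest drops, the 8 largest recoveries, the 4 genes on each side of the thresholds, the 12 smallest genotype p-values and up to 3 genes of each function group; other genes with values were chosen after seeing them. Alternatives were other scalings, filters, thresholds, probe set rules and eBayes settings, no time block, and leaving out arrays.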

Additional observations from a re-analysis of the deposited data

Results flagged for a closer look

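For 4 of the 178 genes the value at 4 h lay on opposite sides of that at 0 h in the 2 genotypes, by more than 0.25 each way. In Zfp280b it differed from the start by 0.49 in labelled-knockout cells and by -0.32 in wild-type cells. For Fam114a1 these values were -0.69 in labelled-knockout cells and 0.29 in wild-type cells. Akap7, which anchors protein kinase A, had -0.28 in labelled-knockout cells and 0.27 in wild-type cells, and Mlxip, a glucose-sensing factor, -0.36 in labelled-knockout cells and 0.31 in wild-type cells. Each value rests on 1 array, and these differences between genotypes at 4 h were not tested. With 1 array in each group, no outlying sample could be looked for.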

How the results depend on the processing

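The number of genes that met the rule was 347 at a threshold of 0.6, 92 at 1, 82 with probe sets averaged over each gene (78 of them among the 178), 362 in labelled-knockout arrays alone, 309 in wild-type arrays alone and 53 with the low point taken at 1 h alone. It was within 1.5 times of 178 for the other alternatives, and 176 without symbols that begin with Zfp and 3 digits, an alternative chosen after seeing the data. The 19 genotype calls became 44 with centring on the housekeeping list (3 higher, 41 lower), 29 with a filter at the 75th percentile, 30 with trend and robust settings (16 of them among the 19) and 0 without the time block, and ranged from 5 to 15 when single arrays were left out. Over all genes tested the calls were 1690, against 2589 with centring, 2349 with trend and robust settings, 150 without the time block and 597 to 1237 without single arrays. Of the 12 genes named for their genotype difference, all 12 lost the call without the time block. Without probe sets whose names end in s, x or a, the value for Dusp12 was 0.04095, but it then came from a probe set at or near background and says nothing of the gene's direction. H2aw lost its call there, and H2aw, Pik3cd and Dusp12 lost theirs with probe sets averaged. The other probe sets of Pik3cd and Dusp12 lay at or near background. The change of the genotype difference was called in 0 of the 178 genes under every alternative run, and in 15 of all genes with trend and robust settings and 6 without 1 of the 1 h arrays, and leaving out a 0 h array made this fit impossible. The genotype fit pairs the genotypes by time; a pairing by replicate could not be made, since each group has 1 array.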
